A study of Homo sapiens with 12 samples.

Results

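CYP4F2, CYP4F3, CYP4F11, CYP4F12 and CYP4F22 are neighbouring paralogues on chromosome 19 that encode fatty acid hydroxylases of the cytochrome P450 superfamily. They were chosen by symbol from a table of 35984 genes, with earlier results of the same libraries known, above all a low level of CYP4F3 in TNFα-treated control cells. That value is a description here and carries no test. Of the 5 genes, 4 had enough counts to be tested. CYP4F22 had 1 count over all 12 libraries. The assay was RNA sequencing of HepG2, an established hepatoma line with many hepatocyte traits.

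The 4 groups had 3 libraries each. They were knock-down cells (DKD) given TNFα, DKD cells left untreated, control cells (CTL) given TNFα and CTL cells left untreated. DKD cells carried stably integrated shRNA cassettes against macroH2A1 and macroH2A2, which are histone variants, delivered by a retroviral pRetroSUPER vector. CTL is labelled as the control genotype. All groups spent a night in 0.5% FBS. TNFα, an inflammatory cytokine, was used at 20 ng/mL for 24 h, and untreated cells received the same volume of PBS with BSA. The labels do not say whether a line was a pool or a clone. A property of the transduced line and an effect of the knock-down therefore cannot be told apart. Nor do the labels name separate cultures behind replicate libraries, so each p-value reflects the spread among libraries, which could be technical.

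The CYP4F enzymes sit in the membrane of the endoplasmic reticulum and take electrons from NADPH through cytochrome P450 reductase. They add a hydroxyl group at or near the methyl end of a long carbon chain (ω-hydroxylation). The alcohol can then be oxidised to a dicarboxylic acid and shortened in peroxisomes. In human liver CYP4F2 hydroxylates arachidonic acid and the side chains of vitamins E and K. CYP4F3 is known for inactivating leukotriene B4, and its neutrophil and liver forms differ by an alternative exon. CYP4F11 acts on long-chain hydroxy fatty acids, on vitamin K and on several drugs. CYP4F12 hydroxylates arachidonic acid and the antihistamine ebastine. CYP4F22 makes the ω-hydroxylated very long chain fatty acids of the skin's acylceramides.

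All 5 genes lie on GRCh38 chromosome 19 by the GENCODE 29 annotation. CYP4F22 spans 15508493 to 15552317 on the plus strand, CYP4F3 15640897 to 15662825 on the plus strand and CYP4F12 15672757 to 15697174 on the plus strand. CYP4F2 spans 15878023 to 15898120 and CYP4F11 15912367 to 15934867, both on the minus strand. Their products share the heme-binding signature of P450 enzymes, in which a cysteine holds the heme iron. The matching 30 bases of each coding sequence (bases 1381 to 1410 from the start codon, or 1402 to 1431 in CYP4F22) are shown to make the kinship of the genes visible, with the cysteine codon in capitals.
CYP4F2: ttctcggcagggcccaggaacTGCatcggg
CYP4F3: ttctcagcagggcccaggaacTGCatcggg
CYP4F11: ttctcggcagggcccagaaacTGCatcggg
CYP4F12: ttctccgcagggcccaggaacTGCatcggg
CYP4F22: ttctctgcaggacccaggaatTGCatcgga
Relative to CYP4F2, this stretch differed at 1 base in each of CYP4F3, CYP4F11 and CYP4F12 and at 4 bases in CYP4F22.

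Over the whole coding sequence, CYP4F2 and CYP4F3 were 90.8% identical, with a longest identical run of 115 bases. The other pairs among the 4 expressed genes were 83.0% to 88.5% identical, and CYP4F22 was 66.0% to 67.7% identical to each of them. Of the 31-base words in CYP4F2 transcripts, 31.3% also occur in another gene and 28.6% in CYP4F3. The share of words found in any other gene was 22.1% for CYP4F3, 12.4% for CYP4F12, 5.42% for CYP4F11 and 0% for CYP4F22. Counts of CYP4F2 and CYP4F3 are therefore uncertain where the authors' transcript quantification could split reads between them. One 60-base stretch (coding bases 281 to 340) shows where the genes separate and where the alternative exon of CYP4F3 falls. Capitals in the CYP4F3 lines mark bases that differ from CYP4F2, and capitals in the CYP4F2 line mark bases that differ from CYP4F3 transcript 201.
CYP4F2: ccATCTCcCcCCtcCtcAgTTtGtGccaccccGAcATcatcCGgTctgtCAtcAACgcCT
CYP4F3 transcript 201: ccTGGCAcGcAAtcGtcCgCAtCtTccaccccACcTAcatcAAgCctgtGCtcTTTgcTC
CYP4F3 transcript 202: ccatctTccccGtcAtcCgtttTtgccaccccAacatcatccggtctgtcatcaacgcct
Transcript 201 differs from CYP4F2 at 28 of the 60 bases, against 6 for transcript 202. The whole coding sequence of transcript 202 is 94.7% identical to CYP4F2. The deposited values are sums per gene, so the forms of CYP4F3 are not told apart in any value below.

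The estimated counts per library summed to 30955080 to 42094144. Values are given as CPM (counts scaled to the library total, with TMM factors), and 1 count was worth 0.0238 to 0.0320 CPM. MACROH2A1 lay between 32.4 and 63.5 CPM in the 6 DKD libraries, against 205 to 279 CPM in the 6 CTL libraries. MACROH2A2 lay between 3.28 and 6.01 CPM in DKD, against 41.0 to 60.4 CPM in CTL. All 8 hepatocyte markers were present at 99.4 CPM or more. The summed level of 4 immune markers was at most 1.05 CPM and that of 3 keratinocyte markers at most 0.450 CPM, with CD3E and KRT14 at 0 counts throughout. Markers of endothelial cells and of fibroblasts (3 each) summed to at most 2.49 and 1.5 CPM. The 2 DKD libraries numbered 1 stood apart on the first principal component (33.0% of the variance), at -53.9 with TNFα and -83.7 without, against -18.2 to 41.5 in the other libraries. In CTL cells the library numbered 1 was also the lowest of its group on this component, at 6.38 with TNFα and -18.2 without. CTL libraries numbered 2 and 3 lay at 19.6 to 41.5. Hepatocyte markers summed to 20802 to 27469 CPM in DKD with TNFα, 27388 to 40676 in DKD untreated, 17667 to 19590 in CTL with TNFα and 22091 to 23849 in CTL untreated. Single markers differed unequally. ALB was at 6243 CPM in DKD and 473 CPM in CTL untreated, and at 2548 and 250 CPM with TNFα. HNF4A was at 326 CPM in DKD and 274 CPM in CTL untreated, and at 349 and 279 CPM with TNFα. The part of the hepatocyte markers in the CYP4F differences was not tested. In bulk RNA, fewer cells that express a gene and less of its RNA per cell cannot be told apart.

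CYP4F3 had the widest span of the 4 expressed genes, with group means of log2 CPM 3.31 apart. In DKD cells it was at 26.8, 13.5 and 10.5 CPM with TNFα (replicates 1, 2 and 3) and at 49.0, 30.6 and 25.5 CPM untreated. In CTL cells it was at 4.0, 3.18 and 2.95 CPM with TNFα and at 14.0, 11 and 14.6 CPM untreated. The lowest group by far was CTL with TNFα, which overlapped no other group. DKD cells with TNFα overlapped both untreated groups, and the 2 untreated groups did not overlap each other. CYP4F3 was highest in replicate 1 of both DKD groups and of CTL with TNFα, but not of CTL untreated.

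CYP4F2, the closest relative of CYP4F3, ran in the same order at lower counts (58 to 549 per library, against 123 to 1795 for CYP4F3). It was at 9.41, 4.16 and 3.40 CPM in DKD with TNFα and at 15, 8.54 and 6.70 CPM in DKD untreated. It was at 2.78, 1.66 and 1.39 CPM in CTL with TNFα and at 4.52, 3.46 and 4.03 CPM in CTL untreated. CTL with TNFα was again below every other library, and DKD with TNFα again overlapped both untreated groups. Replicate 1 was the highest library in all 4 groups, and its gap to the other replicates in CPM was wide in both treatments of DKD cells.

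CYP4F12 separated the lines without overlap. It was at 38.2, 28.6 and 24.6 CPM in DKD with TNFα and at 34.6, 39.1 and 38.2 CPM in DKD untreated. It was at 9.15, 8.14 and 9.60 CPM in CTL with TNFα and at 18.6, 19.9 and 23.0 CPM in CTL untreated. The order was thus DKD, whose 2 groups overlapped, then CTL untreated, then CTL with TNFα, with no overlap between these steps.

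CYP4F11 had a different order from the other 3 genes. It was at 33.9, 20.8 and 22.1 CPM in DKD with TNFα and at 22.4, 16.3 and 17.2 CPM in DKD untreated. It was at 15.9, 9.97 and 11.8 CPM in CTL with TNFα and at 13.8, 9.42 and 11.3 CPM in CTL untreated. All DKD libraries lay above all CTL libraries, while TNFα and untreated groups overlapped within each line.

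CYP4F22, the skin enzyme, had its single count in replicate 3 of DKD with TNFα. In the other 11 libraries it had 0 counts, which allows a level of up to 0.0713 to 0.0961 CPM (3 counts) for counting error alone.

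**Figure D1:**
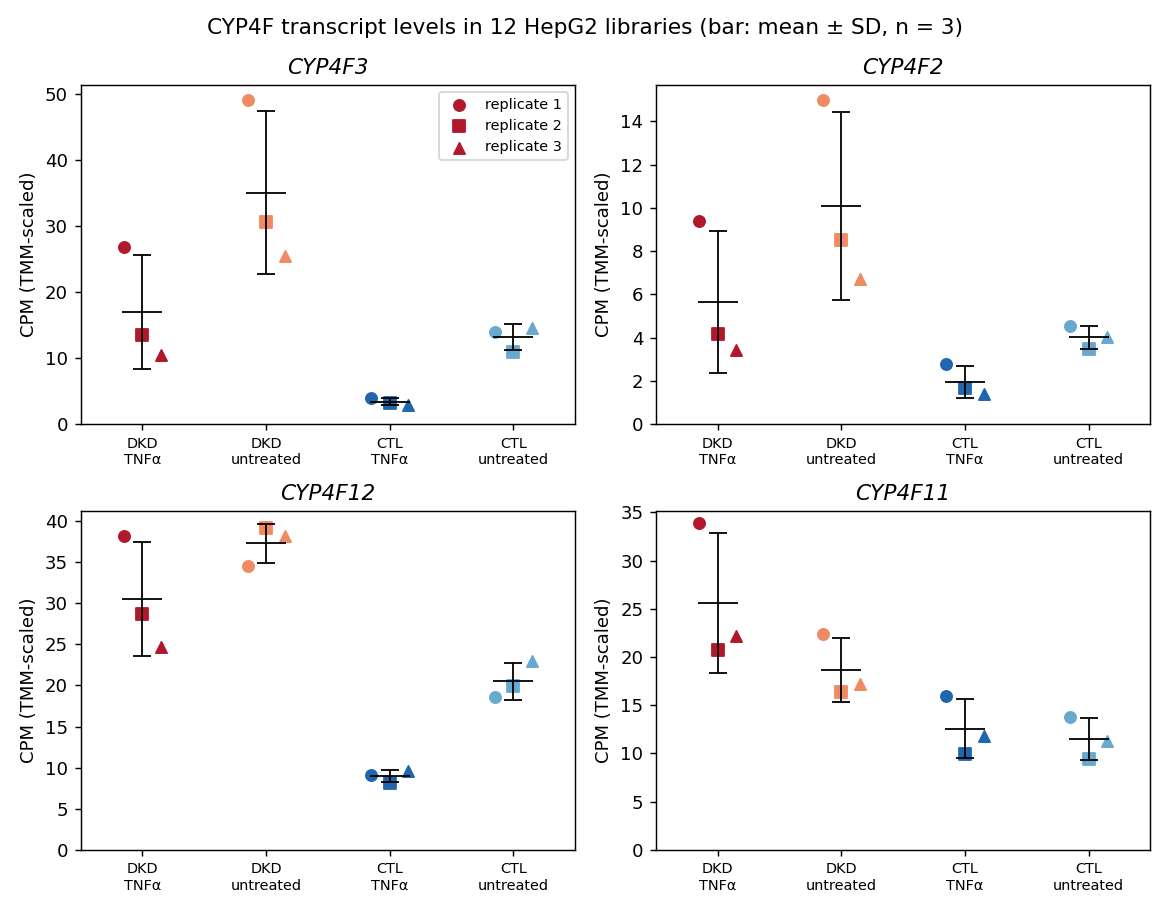
CPM (vertical axes, TMM-scaled) of CYP4F2, CYP4F3, CYP4F11 and CYP4F12 in each library of the 4 groups, with bars at the mean ± SD (n = 3). CTL cells with TNFα sit at the bottom for 3 genes (CYP4F3 at 2.95 to 4.0 CPM), while for CYP4F11 the groups separate by line.

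Levels of different genes were compared per length. Divided by the longest coding transcript of each gene, the level in untreated CTL cells was 10.0 ± 1.10 CPM per kb for CYP4F12, 3.64 ± 0.692 for CYP4F11, 2.61 ± 0.382 for CYP4F3 and 1.66 ± 0.221 for CYP4F2 (SD, n = 3). Divided by the shortest, these levels were 12.2 ± 1.33, 4.55 ± 0.864, 6.40 ± 0.939 and 1.94 ± 0.257 CPM per kb. CYP4F12 was therefore highest and CYP4F2 lowest either way in untreated CTL cells. The order of CYP4F3 and CYP4F11 depends on which CYP4F3 transcript the reads came from.

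The first comparison asked what TNFα did in DKD cells. Of the 4 tested genes, 0 were called higher and 0 lower at an adjusted p under 0.05, against 1.54% and 0.254% of all 16118 genes. Differences are given on the log2 scale, each with its standard error (SE), and every adjusted p is taken over all genes. CYP4F3 had a log2 difference of -1.05 (SE 0.33, adjusted p = 0.217) and was 2.07-fold lower with TNFα. CYP4F2 had a log2 difference of -0.83 (SE 0.41, adjusted p = 0.563) and CYP4F12 of -0.29 (SE 0.15, adjusted p = 0.604). CYP4F11 had a positive difference of 0.46 (SE 0.24, adjusted p = 0.589). In pairs of libraries with the same number, CYP4F2 and CYP4F3 were lower with TNFα in 3 of 3 pairs and CYP4F11 was higher in 3 of 3. With the replicate number as a block, these 3 genes passed the test, at adjusted p = 0.0240 for CYP4F2, 0.0101 for CYP4F3 and 0.0103 for CYP4F11, and CYP4F12 did not (0.308). Over the whole table the block called 1237 genes, against 289 without it. Without both DKD libraries numbered 1, CYP4F3 had a difference of -1.23 (adjusted p = 0.00939), and without replicate 1 of DKD with TNFα alone it had -1.54 (adjusted p = 0.0209).

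In CTL cells the same comparison is a description, since the low CYP4F3 level there led to the choice of these genes. CYP4F3 was 3.9-fold lower with TNFα (log2 difference -1.96, SE 0.35) and CYP4F12 2.29-fold lower (-1.19, SE 0.16). CYP4F2 was 2.06-fold lower (-1.04, SE 0.43). CYP4F11 differed by 0.12 (SE 0.24), with overlapping groups. By the same call rule, 0 of the 4 genes were called higher and 2 lower (3 with the replicate block), beside 1.9% and 0.726% of all genes, and nothing is read from these counts.

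**Figure D2:**
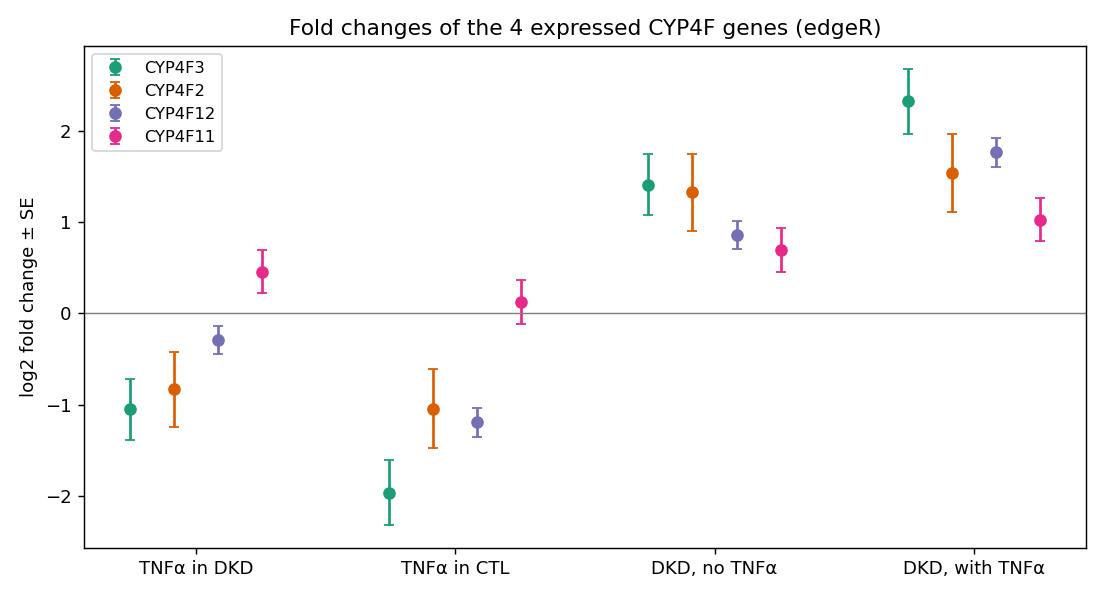
Log2 fold change (vertical axis) with SE of the 4 expressed genes in 4 comparisons, TNFα over untreated in DKD and CTL cells and DKD over CTL cells with and without TNFα. All 8 values of DKD over CTL, which rest on the same 2 lines, are above 0, beside all-gene medians of 0.01 without and 0.00 with TNFα. The share of all genes above 0 was not computed, and nothing is read from that count. CYP4F11 is the one gene with values above 0 for TNFα in both lines (0.46 and 0.12).

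The difference between the TNFα effects of the lines (DKD minus CTL) is described in the same way, since it holds the CTL effect. It was 0.91 (SE 0.48) for CYP4F3, 0.90 (SE 0.22) for CYP4F12, 0.34 (SE 0.34) for CYP4F11 and 0.21 (SE 0.59) for CYP4F2 on the log2 scale. No gene of the table was called in either direction (0% of genes by edgeR, with 184 genes at an unadjusted p under 0.05, and 5 genes by DESeq2). Nothing is read from these counts, and whether these genes respond differently to TNFα in the 2 lines was not settled.

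In untreated cells, all 4 expressed genes had DKD libraries above every CTL library, and 2 passed the test. The share of all genes that separate this way was not computed, so nothing is read from the separation itself. CYP4F12 rose 1.82-fold (log2 difference 0.86, SE 0.16, adjusted p = 0.00813), with means of 37.3 ± 2.40 CPM in DKD and 20.5 ± 2.24 CPM in CTL (SD, n = 3 each). CYP4F3 rose 2.66-fold (1.41, SE 0.34, adjusted p = 0.0360), with 35.0 ± 12.4 CPM in DKD and 13.2 ± 1.93 CPM in CTL. CYP4F2 differed by 1.33 (SE 0.42, adjusted p = 0.114) and CYP4F11 by 0.69 (SE 0.24, adjusted p = 0.152). So 2 of 4 genes were called higher and 0 lower, against 3.13% and 1.86% of all genes. With the replicate block all 4 passed, at adjusted p = 0.00240 for CYP4F2 and 4.50e-04 for CYP4F11, and DESeq2 called CYP4F2 as well (0.0277). Over the whole table the block called 2657 genes and DESeq2 1434, against 803 by edgeR without the block. The call of CYP4F3 was lost in 8 of the 12 fits that left out 1 library, namely replicate 1 or 2 of untreated DKD and any of the 6 CTL libraries (adjusted p up to 0.15), and in a fit of only the 2 groups compared (0.0561). It was kept without both DKD libraries numbered 1 (1.09, adjusted p = 0.00384), as was that of CYP4F12 (0.92, adjusted p = 0.00116).

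With TNFα, the DKD libraries again lay above every CTL library for all 4 expressed genes. The share of all genes doing so was not computed here either, and nothing is read from it. These differences use the CTL libraries with TNFα in which CYP4F3 was known to be low, so CYP4F3 is given here as a description with no test. It was 5.01-fold higher in DKD than in CTL cells (2.33, SE 0.36), with means of 16.9 ± 8.65 CPM in DKD and 3.38 ± 0.552 CPM in CTL (SD, n = 3 each). CYP4F12 rose 3.40-fold (1.77, SE 0.16, adjusted p = 1.15e-04), with 30.5 ± 6.94 CPM in DKD and 8.96 ± 0.747 CPM in CTL. CYP4F11 rose 2.04-fold (1.03, SE 0.24, adjusted p = 0.0276), with 25.6 ± 7.25 CPM in DKD and 12.5 ± 3.04 CPM in CTL. CYP4F2 differed by 1.54 (SE 0.43, adjusted p = 0.0617, or 9.82e-04 with the replicate block and 0.00619 by DESeq2). Its counts may depend on how reads shared with CYP4F3 were split. The p-values of CYP4F2 may thus not be independent of the CYP4F3 level known beforehand. By the call rule, 3 of 4 genes (CYP4F3 among them) were called higher and 0 lower, beside 3.94% and 2.3% of all genes, and nothing is read from these counts. Without both DKD libraries numbered 1 the differences were 1.84 for CYP4F3, 1.58 for CYP4F12, 0.78 for CYP4F11 and 0.96 for CYP4F2, with CYP4F12 and CYP4F11 still called. The call of CYP4F11 was lost without replicate 1 of DKD with TNFα (adjusted p = 0.0968) and without replicate 2 (0.121) or 3 (0.110) of CTL with TNFα, and in a fit of only the 2 groups compared (0.0602).

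The balance between the genes also differed by group. CYP4F11 had 1.64 ± 0.426 counts per CYP4F3 count in DKD with TNFα and 0.555 ± 0.111 in DKD untreated (SD, n = 3 each). In CTL cells it had 3.70 ± 0.486 with TNFα and 0.875 ± 0.106 untreated. The TNFα and untreated libraries did not overlap in either line. CYP4F11 was thus the rarer of the 2 in every untreated library and the more abundant in every TNFα library, by counts. CYP4F3 had 3.06 ± 0.204 counts per CYP4F2 count in DKD with TNFα, 3.55 ± 0.269 in DKD untreated, 1.82 ± 0.349 in CTL with TNFα and 3.29 ± 0.284 in CTL untreated. Only CTL with TNFα, at 1.44 to 2.12, lay apart from the other groups in that ratio. Because these 2 genes share transcript sequence, the ratio also depends on how shared reads were split. The low CYP4F3 level in CTL with TNFα was known beforehand, so both ratios in that group are descriptions.

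**Figure D3:**
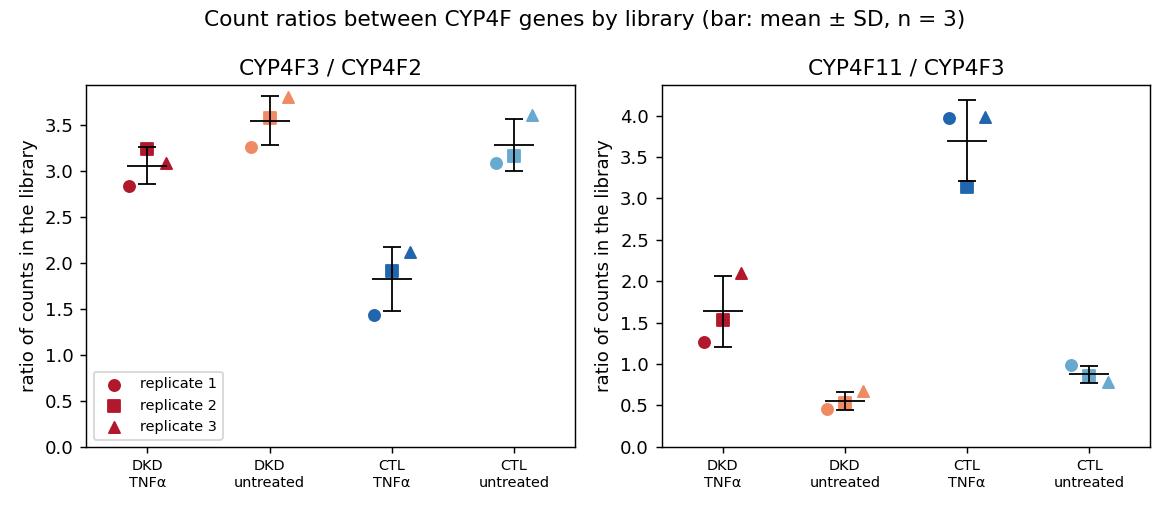
Counts of CYP4F3 per CYP4F2 count (left) and of CYP4F11 per CYP4F3 count (right) in each library by group, with bars at the mean ± SD (n = 3). The right panel separates TNFα from untreated libraries in both lines, and in the left panel CTL with TNFα lies lowest at 1.82 ± 0.349.

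The summed level of the 5 genes was 78.7 ± 25.8 CPM in DKD with TNFα, 101 ± 17.6 in DKD untreated, 26.8 ± 4.54 in CTL with TNFα and 49.2 ± 4.81 in CTL untreated (SD, n = 3). CYP4F11 took 32.9% of the counts of the 5 genes in DKD with TNFα and 18.5% in DKD untreated, and 46.4% in CTL with TNFα and 23.3% in CTL untreated. CYP4F3 took 20.7% in DKD with TNFα and 34.0% in DKD untreated, and 12.6% in CTL with TNFα and 26.7% in CTL untreated. CYP4F12 took 33.8% to 41.8% by group means, and its share was not ordered the same way by treatment in both lines.

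The table holds 21 rows whose symbol starts with CYP4F. Of the 16 outside the list, 7 had enough counts to be tested, and 0 were called in any of the 5 comparisons, with or without the replicate block. Over all genes, 0% to 3.94% were called in either direction of a comparison, and the block called 0 to 3133 genes. With so few rows tested, nothing is read from this count of 0. CYP4F8, a prostaglandin hydroxylase of seminal vesicles whose gene lies between CYP4F22 and CYP4F3, stayed between 0.389 and 0.902 CPM in all libraries. It differed by -0.14 (SE 0.29, adjusted p = 0.976) with TNFα in DKD cells. Between DKD and CTL it differed by 0.39 (SE 0.29, adjusted p = 0.585) without TNFα and by -0.06 (SE 0.29, adjusted p = 0.957) with it. The pseudogene CYP4F30P on chromosome 2, the most abundant of the other rows, reached 8.20 CPM as a group mean and differed between DKD and CTL by 0.27 (SE 0.17, adjusted p = 0.487) without TNFα and by 0.23 (SE 0.17, adjusted p = 0.569) with it. CYP4F23P, a pseudogene between CYP4F22 and CYP4F8 at 2 to 17 counts per library, had DKD libraries above CTL libraries with TNFα without passing the test (1.7, SE 0.56, adjusted p = 0.113), and differed by -0.16 without TNFα (SE 0.56, adjusted p = 0.930).

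**Figure D4:**
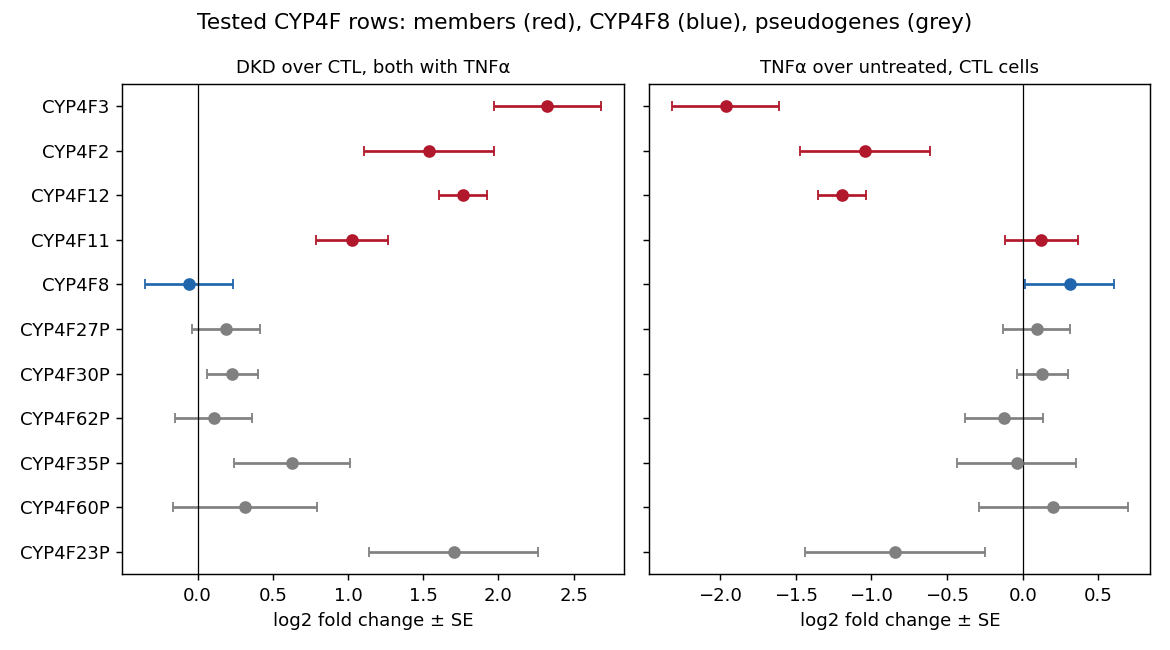
Log2 fold change (horizontal axes) with SE of the 11 tested CYP4F rows, for DKD over CTL cells with TNFα (left) and TNFα over untreated CTL cells (right), with members in red, CYP4F8 in blue and pseudogenes in grey. Among the rows outside the list, 0 passed the test in any comparison, beside 0% to 3.94% of all genes in either direction. Nothing is read from that count, and CYP4F8 lies near 0 with wide errors.

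Around the locus, 32 other genes lie between or within 500 kb of the members by the reference table, and 19 of them were tested. In DKD over CTL cells without TNFα, 1 rose and 0 fell, beside 3.13% and 1.86% of all genes. That gene was HSH2D, a signalling adaptor of blood cells, at 1.60 ± 0.369 CPM in DKD and 0.653 ± 0.103 CPM in CTL (log2 difference 1.29, SE 0.23, adjusted p = 0.00845). In each of the other comparisons 0 were called without the replicate block, beside 0% to 3.94% of all genes in either direction. With the block, TPM4, a tropomyosin, was called higher with TNFα in CTL cells (0.31, adjusted p = 0.487, or 0.0312 with the block), and PGLYRP2, a peptidoglycan-cleaving liver enzyme, in DKD over CTL cells with TNFα (1.06, adjusted p = 0.151, or 0.0148 with the block). The median difference of the 19 genes was 0.03 in DKD over CTL cells without TNFα and 0.09 with it, against 0.01 and 0.00 over all genes tested.

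CYP4F2 and CYP4F11 lie side by side on the minus strand, and the bases just before their annotated starts are alike. They are shown because the 2 genes nonetheless had different orders of levels, with ATTGG (the reverse complement of CCAAT, a common promoter motif) in capitals. The sequences are parts of RefSeq promoter windows on GRCh38.p14, at chr19:15898125-15898239 for CYP4F2 and chr19:15934901-15935015 for CYP4F11, both on the minus strand.
CYP4F2: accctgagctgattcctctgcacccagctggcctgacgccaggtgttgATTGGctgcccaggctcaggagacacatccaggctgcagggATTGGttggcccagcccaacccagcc
CYP4F11: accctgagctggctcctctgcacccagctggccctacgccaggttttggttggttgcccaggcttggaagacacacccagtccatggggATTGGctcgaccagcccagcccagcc
Of the 115 bases, 97 are identical. The windows run from 250 bases before to 50 bases after each RefSeq start. Motifs were searched on both strands of the 250 bases before the start only. The matches and shares below cover those bases, and the 50 bases after the start were not searched. CCAAT matched 2 times in the CYP4F2 window and 1 time in this CYP4F11 window, and 32.0% of 35116 RefSeq promoter windows hold it. The windows of CYP4F2, CYP4F3, CYP4F11 and CYP4F22 held 0 matches to the NF-kB motif (9.96% of all windows), to AGGTCA (12.1%) and to TATAAA (10.7%). CYP4F12 had no promoter window and was not searched. The CYP4F3 window, at chr19:15641062-15641361, lies inside the GENCODE span of that gene (15640897 to 15662825, plus strand). The bases before the GENCODE start of CYP4F3 were therefore not searched. TGANTCA, which reads alike on both strands and so counts each place 2 times, gave 2 matches in the CYP4F3 window and in 1 of the 2 CYP4F11 windows (6.57% of all windows hold it). These letters not being in a window says nothing of the factors themselves.

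For each expressed member, the 3 genes with the nearest pattern were found among 11180 genes, by the root mean square difference of log2 CPM over the 12 libraries after centring each gene on its mean. Nearest to CYP4F3 were NR1H4, which encodes the bile acid receptor FXR (0.28), SERPINC1, which encodes antithrombin (0.30), and DKK4, a secreted Wnt inhibitor (0.34). Nearest to CYP4F2 were RNASE4, a secreted ribonuclease (0.20), APOH, a plasma glycoprotein (0.21), and VAV3 (0.22). Nearest to CYP4F12 were HP, which encodes haptoglobin (0.21), MAT1A, which makes S-adenosylmethionine in liver (0.24), and DAB2, an endocytic adaptor (0.24). Nearest to CYP4F11 were PPFIBP2, a liprin (0.15), GDF7, a growth factor (0.17), and TMPRSS2, a membrane serine protease (0.18). Among the members themselves, CYP4F2 and CYP4F3 were the closest pair at 0.41, and CYP4F3 and CYP4F11 the most distant at 1.04. The libraries share their depth and groups, so these values only describe likeness.

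**Figure D5:**
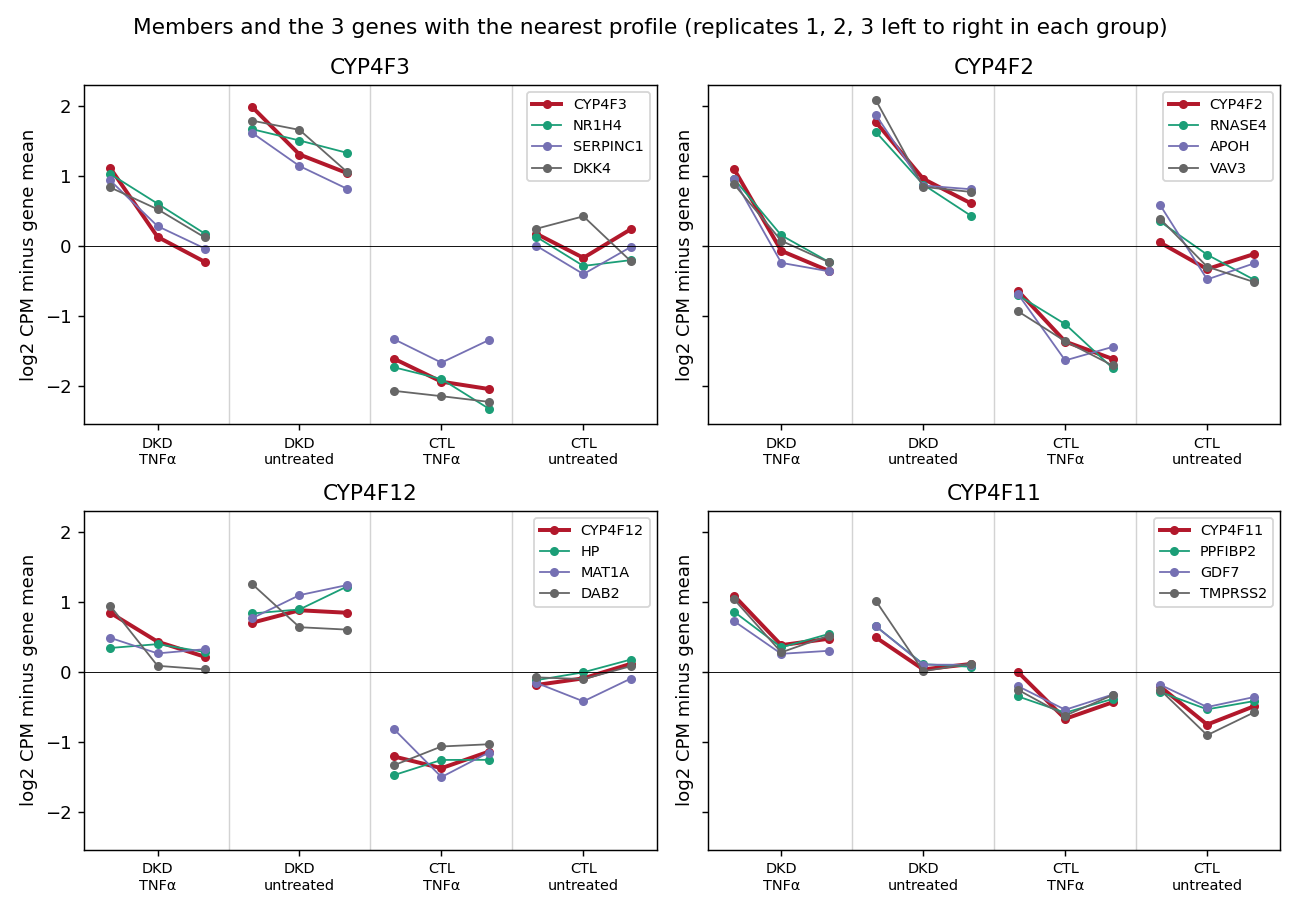
Log2 CPM minus the gene's own mean (vertical axes) in the 12 libraries for each expressed member and its 3 nearest genes, with replicates 1, 2 and 3 left to right in each group. The lines of CYP4F3 and NR1H4 dip together in CTL cells with TNFα, and those near CYP4F11 step between DKD and CTL.

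Among genes of the route that follows ω-hydroxylation (alcohol and aldehyde oxidation, acyl-CoA formation and peroxisomal shortening), 22 of 25 were tested. In DKD over CTL cells without TNFα 4 rose and 0 fell (10 and 0 with the replicate block), and with TNFα 5 rose and 1 fell (11 and 1 with the block). Of all 16118 genes, 3.13% rose and 1.86% fell without TNFα, and 3.94% and 2.3% with it. The block called 2657 and 3133 genes over the table. The list's median difference was 0.26 without and 0.30 with TNFα, against 0.01 and 0.00 over all genes tested. ADH5, a class III alcohol dehydrogenase that also oxidises ω-hydroxy fatty acids, rose by 0.62 without TNFα (SE 0.09, adjusted p = 0.00194). ALDH3A2, the fatty aldehyde dehydrogenase, rose by 0.56 without TNFα (SE 0.14, adjusted p = 0.0462) and by 0.76 with it (SE 0.14, adjusted p = 0.00794). ACSL1, which activates long-chain fatty acids, rose by 1.33 without TNFα (SE 0.22, adjusted p = 0.00527), and EHHADH, a peroxisomal enzyme of dicarboxylic acid shortening, rose by 0.66 with TNFα (SE 0.11, adjusted p = 0.00490). ACSL5 fell by 0.49 in DKD over CTL cells with TNFα (SE 0.12, adjusted p = 0.0391).

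With TNFα, 0 of these 22 genes rose and 1 fell in DKD cells (0 and 4 with the block), beside 1.54% and 0.254% of all genes. In CTL cells 1 rose and 1 fell (1 and 8 with the block), beside 1.9% and 0.726% of all genes. The block called 1237 genes over the table in DKD and 2037 in CTL cells. ADH5 was at 203 ± 14.1 CPM in DKD with TNFα and 297 ± 27.6 CPM in DKD untreated (log2 difference -0.55, SE 0.09, adjusted p = 0.00788). It was at 140 ± 0.642 CPM in CTL with TNFα and 194 ± 14.2 CPM in CTL untreated (-0.47, SE 0.09, adjusted p = 0.0179). ACSL5 rose by 0.64 with TNFα in CTL cells (SE 0.12, adjusted p = 0.0207). The list's median differences were -0.09 in DKD and -0.22 in CTL cells, against -0.01 and 0.00 over all genes tested.

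Of the 17 genes that supply electrons and heme to P450 enzymes, all were tested, and 2 rose and 0 fell in DKD over CTL cells both without and with TNFα (2 and 1 without, and 4 and 3 with TNFα, with the replicate block). Of all 16118 genes, 3.13% rose and 1.86% fell without TNFα, and 3.94% and 2.3% with it. The block called 2657 and 3133 genes over the table. HMOX1, which breaks down heme, was at 69.5 ± 6.96 CPM in untreated DKD and 38.4 ± 1.65 CPM in untreated CTL cells (log2 difference 0.86, SE 0.11, adjusted p = 0.00122). CYB5A, the cytochrome that passes electrons to some P450 enzymes, rose by 0.45 without TNFα (SE 0.09, adjusted p = 0.0153) and by 0.58 with it (SE 0.09, adjusted p = 0.00325). POR, the reductase itself, differed by 0.16 without TNFα (SE 0.14, adjusted p = 0.635) and by 0.20 with it (SE 0.14, adjusted p = 0.553). With TNFα, 0 of the 17 were called in either line (0 higher and 1 lower in DKD with the block). Of all genes, 1.54% rose and 0.254% fell in DKD, and 1.9% and 0.726% in CTL cells. The block called 1237 genes over the table in DKD and 2037 in CTL cells. Nothing is read from these counts of 0. The medians of DKD over CTL were 0.09 without and 0.07 with TNFα.

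Vitamin K and E handling, which concerns substrates of CYP4F2, had 14 of 15 genes tested. In DKD over CTL cells 1 rose and 0 fell without TNFα (5 and 1 with the block), and 3 rose and 2 fell with it (6 and 2 with the block). Of all 16118 genes, 3.13% rose and 1.86% fell without TNFα, and 3.94% and 2.3% with it. The block called 2657 and 3133 genes over the table. PROC, the vitamin K-dependent protein C, rose by 0.53 without TNFα (SE 0.08, adjusted p = 0.00419) and by 0.65 with it (SE 0.08, adjusted p = 0.00123). PROZ, the vitamin K-dependent protein Z, rose by 1.95 with TNFα (SE 0.41, adjusted p = 0.0164). GGCX, the vitamin K-dependent carboxylase, fell by 0.40 in DKD over CTL with TNFα (SE 0.08, adjusted p = 0.0164). With TNFα, 1 gene of the list rose and 0 fell in each line (1 and 0 in DKD, and 2 and 2 in CTL cells, with the block). Of all genes, 1.54% rose and 0.254% fell in DKD, and 1.9% and 0.726% in CTL cells. The list's gene called in both lines was again GGCX. It rose by 0.43 in DKD (SE 0.08, adjusted p = 0.0269) and by 0.60 in CTL cells (SE 0.08, adjusted p = 0.00359). The medians of DKD over CTL were 0.08 without and 0.14 with TNFα.

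Eicosanoid enzymes and receptors, which make, clear or sense CYP4F substrates such as leukotriene B4, had 12 of 19 genes tested, and 0 were called in any comparison without the replicate block. With the block, PTGES, a prostaglandin E synthase, was called higher with TNFα in DKD cells (1.62, adjusted p = 0.232, or 0.0425 with the block). In DKD over CTL cells, the block gave 2 higher and 1 lower without TNFα (2657 genes called over the table). It gave 2 higher and 0 lower with TNFα (3133 over the table). The higher ones were PTGR1, which breaks down prostaglandins and leukotriene B4, and the epoxide hydrolase EPHX1, and the lower one was the epoxide hydrolase EPHX2. The acylceramide route around CYP4F22 had 9 of 14 tested, and 0 were called without the block. With the block, ELOVL1, a fatty acid elongase, was called lower in DKD over CTL cells without TNFα (-0.46, adjusted p = 0.296, or 0.0209 with the block) and with it (-0.58, adjusted p = 0.152, or 0.00593 with the block). Of 7 other CYP4 genes 3 were tested and 0 were called without the block. Over all genes, 0% to 3.94% were called in either direction of a comparison without the block. Nothing is read from the counts of 0 in these lists. With the replicate block, CYP4V2, a fatty acid hydroxylase of the retina and liver, was called higher in all 4 comparisons of 2 groups. With TNFα it differed by 0.44 in DKD (adjusted p = 0.0673, or 0.0157 with the block) and by 0.43 in CTL cells (0.0619, or 0.0151 with the block). In DKD over CTL it differed by 0.33 without TNFα (0.111, or 0.0372 with the block) and by 0.35 with it (0.0785, or 0.0229 with the block).

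Nuclear receptors and other transcription factors of liver and inflammation had 27 of 28 genes tested. In DKD over CTL cells 3 rose and 1 fell without TNFα (7 and 1 with the block), and 4 rose and 2 fell with it (8 and 4 with the block). Of all 16118 genes, 3.13% rose and 1.86% fell without TNFα, and 3.94% and 2.3% with it. The block called 2657 and 3133 genes over the table. NR1H4 was at 36.3 ± 10.6 CPM in DKD with TNFα and 66.1 ± 7.70 CPM in DKD untreated, and at 5.89 ± 1.19 CPM in CTL with TNFα and 21.5 ± 3.42 CPM in CTL untreated. Its DKD over CTL difference was 1.62 without TNFα (SE 0.22, adjusted p = 0.00173) and 2.62 with it (SE 0.23, adjusted p = 1.02e-04). NFE2L2, which drives antioxidant genes, rose by 0.67 without TNFα (SE 0.07, adjusted p = 3.00e-04) and by 0.68 with it (SE 0.07, adjusted p = 2.37e-04). PPARGC1A, a coactivator of oxidative metabolism, rose by 1.24 without TNFα (SE 0.19, adjusted p = 0.00278), and RXRA, a partner of many nuclear receptors, rose by 0.66 with TNFα (SE 0.13, adjusted p = 0.0116).

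With TNFα, 2 of these regulators rose and 0 fell in DKD cells (5 and 2 with the block), and 4 rose and 2 fell in CTL cells (6 and 5 with the block). Of all genes, 1.54% rose and 0.254% fell in DKD, and 1.9% and 0.726% in CTL cells. The block called 1237 and 2037 genes over the table. RELB, an NF-kB subunit, was at 31.8 ± 7.90 CPM in DKD with TNFα and 4.58 ± 0.231 CPM in DKD untreated (log2 difference 2.79, SE 0.22, adjusted p = 1.54e-04). It was at 32.2 ± 5.62 CPM in CTL with TNFα and 3.27 ± 0.735 CPM in CTL untreated (3.30, SE 0.22, adjusted p = 4.78e-05). NFKB1, another NF-kB subunit, rose by 0.73 with TNFα in DKD cells (SE 0.13, adjusted p = 0.0139). NR1H4 differed by -0.87 with TNFα in DKD cells (SE 0.22, adjusted p = 0.0858, or 8.72e-04 with the block) and fell by 1.87 in CTL cells (SE 0.23, adjusted p = 0.00152). PPARGC1A rose by 1.22 with TNFα in CTL cells (SE 0.19, adjusted p = 0.00591). The list's medians ran from 0.06 to 0.22 over the 4 comparisons of 2 groups.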

How the data were processed

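RNA was sequenced from 12 HepG2 libraries (4 groups of 3, from the labels' titles). The authors deposited estimated counts per gene symbol, whole numbers as deposited. CASAVA 1.7, Salmon 0.14.0, DESeq2 and GRCh38/hg38 are named per the submitters' processing notes. Not given in the sources used here are the annotation, the step from transcripts to genes and the strand setting. A second, scaled table was not used.

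Counts were tested with edgeR 4.0.16 in R 4.3.3 (filterByExpr with minimum count 10 and total 15, TMM, quasi-likelihood test, 1 mean per group, 8 residual degrees of freedom). This left 16118 genes. Benjamini-Hochberg adjustment covered all of them, with calls at an adjusted p under 0.05. The SE of each difference was derived from the quasi-likelihood test, as the absolute log2 difference over the square root of its F statistic. The code was tested on simulated data. CPM used TMM factors; log2 CPM for patterns used a prior count of 2. Intervals and floors cover counting error only.

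Same-numbered libraries deviated together from their group means (r = 0.19 to 0.69), so the replicate number was taken as pairing and given as a block. Libraries numbered 2 and 3 of different groups also deviated together (r = 0.04 to 0.31). Those numbered 1 went against both (r = -0.54 to -0.20). The 3 deviations of a group sum to 0 for each gene, so some opposite signs follow from the centring, and nothing is read from them. The labels give no pairing, and the block was chosen from these same data, so its p-values rest on that choice. No pair of replicates was alike within sampling noise. The members and lists were chosen with earlier results of these data known. Named genes were the members, other CYP4F rows, and up to 3 called genes per list and comparison by smallest p, of which some are given, with POR, CYP4V2, ALDH3A2 and genes called with the replicate block alone added after their values were seen. Nearest patterns needed a mean log2 CPM of at least 2. Identity, shared 31-base words and motifs were computed from GENCODE 29 transcripts and RefSeq promoter windows. Alternatives were DESeq2 1.42.0, RLE factors, no filter, the replicate block, only the groups compared, and libraries left out.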

Additional observations from a re-analysis of the deposited data

How the results depend on the processing

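The count of CYP4F members called for TNFα in DKD was 0, against 1 with DESeq2, 3 with the replicate block, 1 without both DKD libraries numbered 1, 3 without all 4 libraries numbered 1, and 0 to 1 when 1 library was left out. For DKD without TNFα it was 2, against 4 with the block, 1 with only the 2 groups compared, 4 without all 4 libraries numbered 1, 3 with DESeq2, and 1 to 3 when 1 library was left out. Leaving out 1 library gave 1 to 2 for TNFα in CTL (2 in full) and 2 to 4 for DKD with TNFα (3 in full, 4 with DESeq2 or the block, 2 with only the 2 groups compared). Genes called over the whole table numbered 289 for TNFα in DKD, 423 for TNFα in CTL, 803 for DKD without TNFα, 1005 for DKD with TNFα and 0 for the interaction. In the same order they were 651, 1024, 1434, 1752 and 5 with DESeq2. With the replicate block they were 1237, 2037, 2657, 3133 and 0. With only the 2 groups compared the first 3 were 41, 691 and 332. Without both DKD libraries numbered 1 they were 466, 1400 and 1384, and without all 4 libraries numbered 1 the first 4 were 1360, 2225, 1983 and 2375. Leaving out 1 library gave 127 to 357, 149 to 709, 423 to 917, 572 to 1545 and 0 to 1. When 1 library was left out, CYP4F2's interaction ran from -0.37 (without DKD TNFα replicate 1) to 0.60 (0.21 in full), and was -0.0033 without DKD untreated replicate 3. CYP4F11's value for TNFα in CTL ran from -0.11 (without CTL TNFα replicate 1) to 0.27 (0.12 in full), and was -0.026 without CTL untreated replicate 2. The cause was not tested. RLE factors and no filter changed 0 calls of members. CYP4F2, at 58 to 549 counts per library, is the member most limited by depth after CYP4F22. The block changed no other call of a member than those given with the comparisons.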
